A study of Mus musculus with 4 samples.

Results

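The genes of glycolysis, lactate handling and glycogen metabolism were followed in white fat from under the skin of mice given BML-260 or vehicle. The set holds 36 genes of the 51912 in the deposited table, picked by symbol from the enzymes and carriers of these pathways, and all 36 were found and had enough counts to be tested. Of these, 6 encode isoforms used mainly by muscle (Pfkm, Pgam2, Eno3, Pygm, Phka1 and Phkg1) and are shown apart from the other 30. RNA sequencing covered 4 libraries of 8-week C57BL/6 animals: vehicle A and vehicle B from mice treated with dimethyl sulfoxide (DMSO), and BML-260 A and BML-260 B from mice treated with BML-260, which inhibits the phosphatase DUSP22 (JSP-1). The design text speaks of 8 mice, 4 per treatment, but the sources used here do not tie mice to libraries. All p-values therefore measure only the spread between these 4 libraries, which may be technical. Expected counts per library ran from 19999836 to 23726781.

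Glycolysis splits glucose into pyruvate through a chain of cytosolic enzymes, and lactate dehydrogenase and the monocarboxylate carriers turn pyruvate into lactate and move it across the cell membrane. Glycogen is the branched store of glucose that is built by glycogen synthase and its helpers and taken apart by glycogen phosphorylase, which phosphorylase kinase switches on. White adipocytes use glycolysis to make glycerol phosphate and acetyl-CoA for triglycerides. Skeletal muscle fibres run glycolysis at high flux and carry their own isoforms of several of these enzymes, encoded by separate genes.

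The promoters of the muscle isoforms Pygm and Pgam2, and of the sister gene Pgam1, are printed as examples. All 6 muscle isoforms had the same order of libraries and Pgam1 had another, so this order does not single out the printed pair. Each window runs from 250 bases before to 50 bases after the RefSeq start of transcription on GRCm38.p6 and was read 5′ to 3′ on the gene's strand. Capitals mark matches on either strand to the E-box cores CAGCTG and CACCTG and to the MEF2 site, sequences that muscle transcription factors are known to bind. Pygm lies at chr19:6384158-6384457 on the plus strand, Pgam2 at chr11:5803747-5804046 on the minus strand and Pgam1 at chr19:41911621-41911920 on the plus strand.
Pygm: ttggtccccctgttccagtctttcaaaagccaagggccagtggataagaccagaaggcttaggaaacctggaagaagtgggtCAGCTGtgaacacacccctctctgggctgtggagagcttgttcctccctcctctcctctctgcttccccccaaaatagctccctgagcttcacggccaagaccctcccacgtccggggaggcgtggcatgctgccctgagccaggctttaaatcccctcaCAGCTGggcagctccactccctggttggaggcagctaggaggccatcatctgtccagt
Pgam2: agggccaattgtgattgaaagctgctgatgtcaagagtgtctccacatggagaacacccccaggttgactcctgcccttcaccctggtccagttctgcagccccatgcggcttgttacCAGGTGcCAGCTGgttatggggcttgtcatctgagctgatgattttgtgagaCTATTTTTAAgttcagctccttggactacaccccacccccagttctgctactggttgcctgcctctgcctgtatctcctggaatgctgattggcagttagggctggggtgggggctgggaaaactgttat
Pgam1: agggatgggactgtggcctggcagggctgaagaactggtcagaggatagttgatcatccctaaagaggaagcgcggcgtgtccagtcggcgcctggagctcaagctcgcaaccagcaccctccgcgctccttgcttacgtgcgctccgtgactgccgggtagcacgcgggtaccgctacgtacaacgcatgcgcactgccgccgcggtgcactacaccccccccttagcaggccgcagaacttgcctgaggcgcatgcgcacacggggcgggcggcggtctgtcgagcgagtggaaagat
The Pygm window held 2 matches to CAGCTG. The Pgam2 window held 1 match each to CAGCTG, to CACCTG and to MEF2, the first 2 separated by a single base. The Pgam1 window held no match to any of the 3. Of the 6 muscle isoforms, 4 had CAGCTG in at least 1 window, 3 had CACCTG and 1, Pgam2, had MEF2. Over all 36 genes RefSeq gave 9 windows for the muscle isoforms and 45 for the others. CAGCTG was present in 44.4% of the windows of muscle isoforms, 17.8% of the others and 16.3% of all 32851 promoters. CACCTG was present in 44.4%, 13.3% and 20.2% in the same order, and MEF2 in 11.1%, 2.22% and 3.19%. Of the 2 forms of the core of the hypoxia response element, ACGTG was present in 33.3% of the windows of muscle isoforms, 48.9% of the others and 19.6% of all promoters, and GCGTG in 55.6%, 53.3% and 32.4%. The E-box CACGTG, which holds ACGTG within it, was present in 11.1%, 13.3% and 7.15%. These matches describe letters in a window, and several windows belong to the same gene.

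Across the set, most values were higher with BML-260. By edgeR's quasi-likelihood test 0 of the 36 genes passed an adjusted p of 0.05, a threshold that 0.00639% of the 15643 genes tested passed. The smallest adjusted p among the 36 was 0.292, for Pfkfb4. Without adjustment, 11 of the 36 were higher at a p under 0.05, against 7.45% of all genes, and 0 were lower, against 3.61%. The 11 were Pfkm, Eno3, Phka1, Phkg1, Slc16a3, Aldoa, Tpi1, Gapdh, Pgk1, Pkm and Pfkfb4. DESeq2 called 6 of the 36 higher at an adjusted p of 0.05 (Phkg1, Tpi1, Gapdh, Pgk1, Pkm and Pfkfb4), against 2.09% of all genes, and 0 lower, against 0.499%. The authors' deposited table has the same 6 at an adjusted p under 0.05, against 0.555% of its 51912 genes higher and 0.133% lower. That base also holds genes outside the 15643 tested here, so its shares cannot be set beside those of edgeR and DESeq2. By edgeR, the median log2 fold change was 2.63 over the muscle isoforms, 0.29 over the other 30 genes and 0.02 over all genes tested. The authors' log2 fold changes of the muscle isoforms were smaller, from 0.30 for Pygm to 1.22 for Phkg1. Values of the groups did not overlap for 20 of the 36 genes on the higher side, against 22.9% of all genes, and for 3 on the lower side (Pfkp, Slc16a1 and Pygb), against 21.5%.

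**Figure D1:**
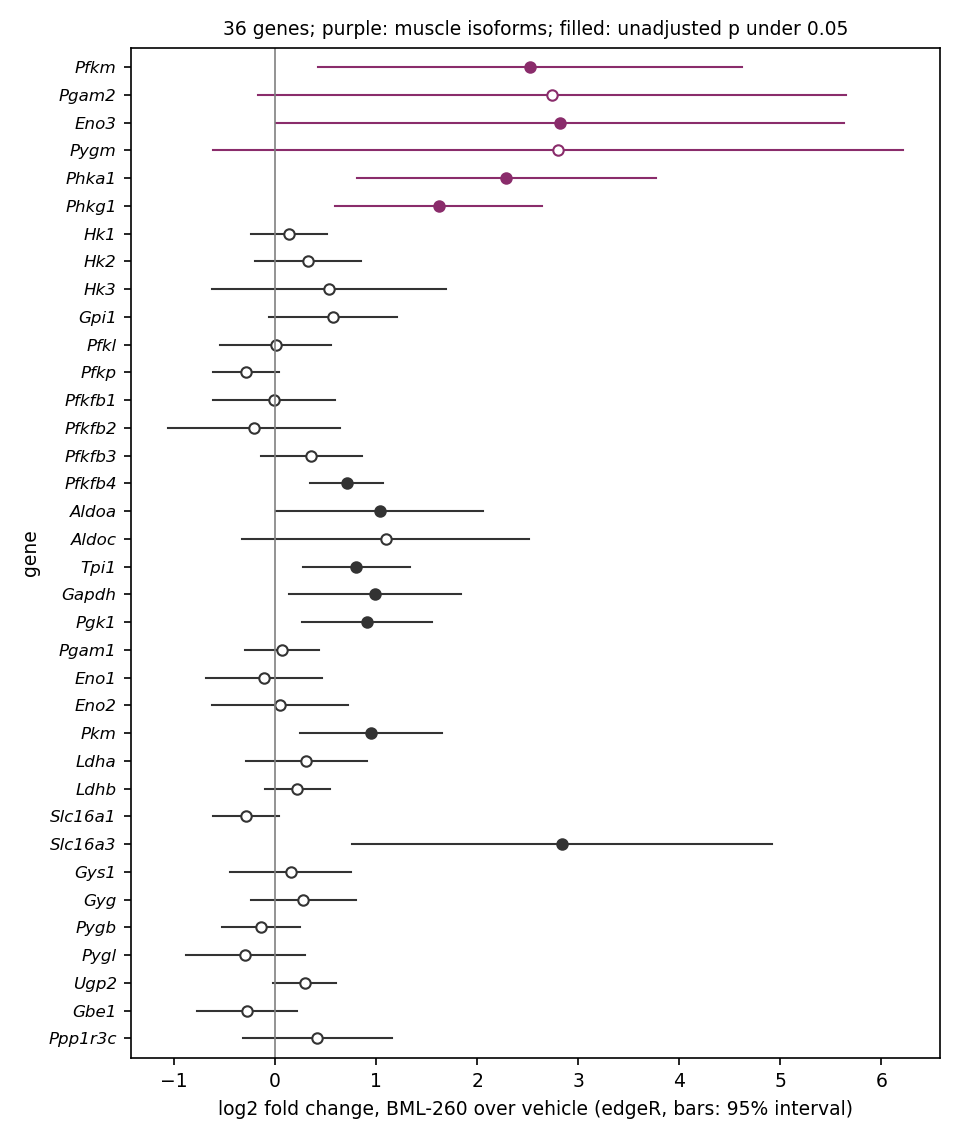
Log2 fold change of BML-260 over vehicle for each of the 36 genes, from edgeR with 2 libraries per group. Points are estimates, bars are 95% intervals, purple marks the muscle isoforms and filled points have an unadjusted p under 0.05; the purple points lie between 1.62 and 2.82, and Slc16a3 lies at 2.84.

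The libraries differed in skeletal muscle RNA. A list of 23 skeletal muscle markers, such as Ckm (muscle creatine kinase) and Acta1 (skeletal actin), took 0.0555% and 1.33% of counts in vehicle libraries A and B, against 3.93% and 5.29% in BML-260 libraries A and B. All 23 were above 0 counts in every library, and all 23 had higher values in both BML-260 libraries than in either vehicle library. The summed level of the list was 538 and 13222 CPM (read counts scaled to library size) in vehicle libraries A and B, against 37820 and 57170 in BML-260 libraries A and B. This order, vehicle A lowest and BML-260 B highest, was also the order of 15 of the 36 genes, against 7.04% of all genes tested. It was the order of 22 of the 23 muscle markers taken singly, and also of 6 of 9 thermogenic adipocyte markers. The 6 were Ucp1, Cidea, Cox7a1, Cox8b, Elovl3 and Cpt1b, and bulk values do not tell which cells they came from. Some steps of this order were small, such as 251 and 263 CPM for Ucp1 in BML-260 A and B. How much of each value came from muscle RNA was not tested. The 15 were the 6 muscle isoforms and Gpi1, Aldoa, Tpi1, Gapdh, Pgk1, Pkm, Ldha, Slc16a3 and Ppp1r3c. Taken singly, vehicle A was the lowest library for 21 of the 36 genes, against 25.7% of all genes. BML-260 B was the highest for 25, against 24.9%. Within the vehicle group, vehicle B was over 1.5 times vehicle A for all 6 muscle isoforms and for 5 of the other 30 genes (Slc16a3, Aldoc, Hk3, Ppp1r3c and Aldoa), against 9.22% of all genes. In bulk tissue, fewer or more cells of a type and less or more RNA per cell cannot be told apart.

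Pygm encodes muscle glycogen phosphorylase, which frees glucose phosphate from glycogen, and lies on chromosome 19 at 6384399 to 6398459 of GRCm38, plus strand. Its level was 20.5 and 514 CPM in vehicle libraries A and B, against 1379 and 2340 in BML-260 libraries A and B. The groups did not overlap, but the vehicle libraries differed from each other 25.1-fold. The log2 fold change was 2.80 (SE 1.35, edgeR adjusted p = 0.505), with a 95% interval from -0.61 to 6.21. Set against the muscle markers, Pygm stood, per 1000 CPM of the marker list, at 38.1 and 38.8 CPM in vehicle libraries A and B, against 36.5 and 40.9 in BML-260 libraries A and B. These ratios differed by 1.12-fold at most, and the level itself followed the order of the markers.

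Pgam2 encodes the muscle phosphoglycerate mutase, which moves the phosphate of phosphoglycerate late in glycolysis (chromosome 11, 5801640 to 5803733, minus strand). It stood at 4.27 and 71.2 CPM in vehicle A and B, against 221 and 283 in BML-260 A and B. The groups did not overlap and vehicle A was far below the other 3 libraries. The log2 fold change was 2.74 (SE 1.15, edgeR adjusted p = 0.470). Eno3 encodes the muscle enolase, which makes phosphoenolpyruvate (chromosome 11, 70657202 to 70662513, plus strand). It stood at 17.2 and 220 CPM in vehicle A and B, against 679 and 996 in BML-260 A and B (log2 fold change 2.82, SE 1.11, edgeR adjusted p = 0.451). Vehicle B was 16.7 times vehicle A for Pgam2 and 12.8 times for Eno3. Per 1000 CPM of muscle markers, Pgam2 ranged 1.61-fold and Eno3 1.92-fold over the 4 libraries, both highest in vehicle A.

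Pfkm encodes the muscle subunit of phosphofructokinase, the main control point of glycolysis (chromosome 15, 98092589 to 98132451, plus strand). Its level was 32.6 and 186 CPM in vehicle A and B, against 458 and 799 in BML-260 A and B. The log2 fold change was 2.52 (SE 0.83, edgeR adjusted p = 0.404). Per 1000 CPM of muscle markers it was 60.7 in vehicle A and between 12.1 and 14.1 in the other 3 libraries. Phka1 and Phkg1 encode the muscle alpha subunit and the catalytic gamma subunit of phosphorylase kinase, on chromosomes X (102513975 to 102644246) and 5 (129863421 to 129898549), both on the minus strand. Phka1 stood at 19.4 and 61.6 CPM in vehicle, against 147 and 250 with BML-260 (log2 fold change 2.29, SE 0.59; adjusted p = 0.348 in edgeR). Phkg1 stood at 19.0 and 42.9 CPM in vehicle, against 80.0 and 111 with BML-260 (log2 fold change 1.62, SE 0.41; 0.342 adjusted p in edgeR). DESeq2 called Phkg1 (adjusted p = 0.00313) and none of the other 5 muscle isoforms. The vehicle libraries differed least for these 2 kinase subunits, 3.17-fold for Phka1 and 2.26-fold for Phkg1. Per 1000 CPM of muscle markers their values ranged 9.30-fold and 18.3-fold, highest in vehicle A. Counts of Phkg1 were not whole numbers, so its reads were shared with other genes in the authors' counting and its level is uncertain.

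**Figure D2:**
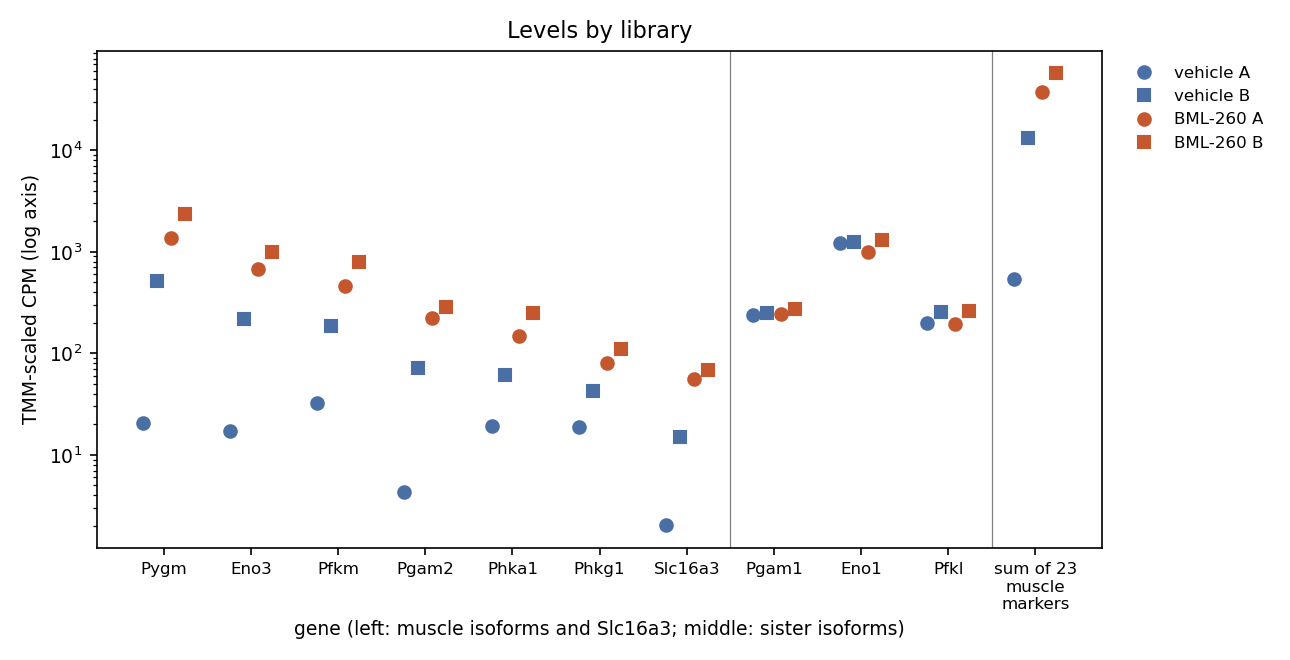
TMM-scaled CPM on a log axis for the 6 muscle isoforms and Slc16a3 (left), for 3 sister isoforms (middle) and for the sum of 23 muscle markers (right), with 1 point per library. On the left every gene is lowest in vehicle A and highest in BML-260 B, as is the marker sum, while Pgam1, Eno1 and Pfkl differ little between libraries.

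Where an enzyme step is served by several genes, their levels were compared per length, as FPKM (fragments scaled to transcript length and depth), and expressed as the share of the step's summed FPKM. An exact permutation test of 2 libraries against 2 cannot give a two-sided p below 0.333. Pygm took 3.43% and 43.4% of glycogen phosphorylase FPKM in vehicle libraries A and B, against 74.9% and 78.8% in BML-260 libraries A and B. The groups did not overlap, with 23.4% ± 28.2 in vehicle libraries and 76.9% ± 2.74 in treated ones (SD, n = 2 each; exact permutation p = 0.333). Pgam2 took 4.87% and 44.6% of phosphoglycerate mutase FPKM in vehicle A and B and 72.2% and 74.7% in BML-260 A and B. Eno3 took 2.0% and 20.6% of enolase FPKM in vehicle and 50% and 53.0% with BML-260. Pfkm took 11.5% and 38.8% of phosphofructokinase FPKM in vehicle and 66.8% and 74.1% with BML-260. In all 4 steps the muscle isoform was a minor product in vehicle A, and in both BML-260 libraries it made up at least 50% of the step. The exact permutation p was 0.333 for each.

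The sister isoforms of the same steps differed less between the libraries. The summed FPKM of phosphoglycerate mutase without Pgam2, which is Pgam1 alone, was 161 and 164 in vehicle A and B and 160 and 174 in BML-260 A and B. For Pgam1 the log2 fold change was 0.07 (SE 0.14), with a 95% interval from -0.30 to 0.44. The summed FPKM of enolase without Eno3 was 728 and 729 in vehicle and 594 and 750 with BML-260. Most of it was Eno1, the ubiquitous enolase, with a log2 fold change of -0.11 (SE 0.23). For phosphofructokinase without Pfkm the sum was 98.9 and 113 in vehicle and 88.4 and 106 with BML-260. Pfkl, the liver-type subunit, had a log2 fold change of 0.01 (SE 0.22). Pfkp, the platelet-type subunit, lay at 113 and 104 CPM in vehicle, against 94.2 and 83.6 with BML-260, lower in both treated libraries (log2 fold change -0.29, SE 0.13). For glycogen phosphorylase without Pygm the sum was 253 and 266 in vehicle and 182 and 243 with BML-260. Pygb, the brain form, and Pygl, the liver form, lay at log2 fold changes of -0.14 (SE 0.15) and -0.29 (SE 0.23).

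**Figure D3:**
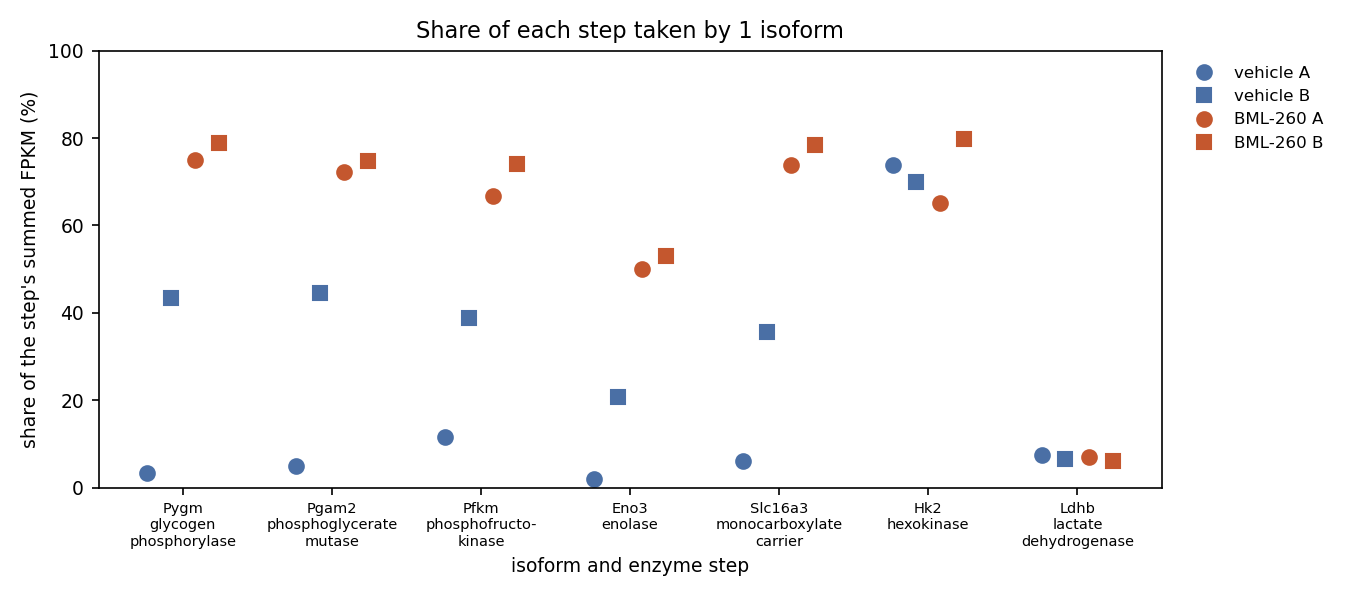
Share of the summed FPKM of an enzyme step taken by the isoform named on the x axis, in percent, with 1 point per library. Pygm, Pgam2, Pfkm, Eno3 and Slc16a3 lie at 2.0% to 11.5% in vehicle A and at 50% to 78.8% in the BML-260 libraries, while Hk2 and Ldhb overlap between the groups.

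Among the genes not set apart as muscle isoforms, Slc16a3 had the largest log2 fold change in edgeR. In the authors' deposited values the log2 fold change of Slc16a3 was 0.56, below 0.84 for Gapdh. Slc16a3 encodes MCT4, the carrier that exports lactate from highly glycolytic cells, with its gene on chromosome 11 (120948480 to 120960868, plus strand). Its level was 2.04 and 15.1 CPM in vehicle libraries A and B, against 55.4 and 68.1 in BML-260 libraries A and B. The groups did not overlap, and vehicle B was 7.39 times vehicle A. The log2 fold change was 2.84 (SE 0.82, edgeR adjusted p = 0.377; DESeq2 adjusted p = 0.295). Per 1000 CPM of muscle markers it stood at 3.8 in vehicle A and between 1.14 and 1.46 in the other 3 libraries, a range of 3.33-fold. Slc16a1 encodes MCT1, which carries lactate in both directions. It stood at 58.6 and 69.0 CPM in vehicle, against 52.5 and 52.0 with BML-260 (log2 fold change -0.29, SE 0.13; adjusted p = 0.483 in edgeR). The share of Slc16a3 in the summed FPKM of the pair was 6.03% and 35.7% in vehicle A and B and 73.8% and 78.5% in BML-260 A and B.

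Of the glycolytic enzymes outside the muscle isoforms, Gapdh, Pkm, Aldoa, Tpi1 and Pgk1 lay higher with BML-260. In edgeR their log2 fold changes were smaller than that of any muscle isoform. In the authors' deposited values they ran from 0.73 for Tpi1 to 0.84 for Gapdh. There the muscle isoforms had 0.30 (Pygm), 0.35 (Pgam2), 0.40 (Eno3), 0.61 (Pfkm), 0.82 (Phka1) and 1.22 (Phkg1), so the ranking depends on the method. Gapdh, which makes the energy-rich bisphosphoglycerate, stood at 1379 and 1972 CPM in vehicle A and B, against 2626 and 4031 in BML-260 A and B (log2 fold change 0.99, SE 0.34, edgeR adjusted p = 0.418; DESeq2 adjusted p = 0.0182). Pkm, the pyruvate kinase of muscle and most other tissues, stood at 717 and 970 CPM in vehicle, against 1371 and 1886 with BML-260 (log2 fold change 0.95, SE 0.28, edgeR adjusted p = 0.377; DESeq2 adjusted p = 0.00628). Aldoa, the aldolase of muscle and most other tissues, stood at 1850 and 3083 CPM in vehicle, against 3769 and 6357 with BML-260 (log2 fold change 1.04, SE 0.40, edgeR adjusted p = 0.448; DESeq2 adjusted p = 0.0556). For these 3 genes the groups did not overlap, and BML-260 B was the highest library. Aldoa, Gapdh and Pkm are abundant in skeletal muscle fibres as well as in other cells, and gene-level values do not separate their transcripts by cell type.

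Tpi1, which interconverts the triose phosphates, stood at 385 and 447 CPM in vehicle A and B, against 641 and 813 in BML-260 A and B (log2 fold change 0.81, SE 0.21, edgeR adjusted p = 0.349; DESeq2 adjusted p = 0.00274). Pgk1, which makes ATP from bisphosphoglycerate, stood at 182 and 226 CPM in vehicle, against 306 and 463 with BML-260 (log2 fold change 0.91, SE 0.25, edgeR adjusted p = 0.360; DESeq2 adjusted p = 0.0169). For both, vehicle B was close to vehicle A, at 1.16 times for Tpi1 and 1.25 times for Pgk1, and the treated libraries lay above both. Gpi1, which converts glucose phosphate to fructose phosphate, stood at 330 and 444 CPM in vehicle, against 486 and 664 with BML-260 (log2 fold change 0.57, SE 0.25). With the mean level of the muscle markers as a term of the edgeR model, the log2 fold changes were 0.44 for Gapdh, 0.49 for Pkm, 0.29 for Aldoa, 0.56 for Tpi1 and 0.54 for Pgk1, in a fit that leaves 1 residual degree of freedom. In the same fit they were 0.53 for Pfkm, 0.03 for Pgam2, 0.25 for Eno3, -0.29 for Pygm, 0.84 for Phka1 and 0.57 for Phkg1. None of these passed an unadjusted p of 0.05 there. The mean log2 CPM of the markers was 3.87 and 7.87 in vehicle libraries A and B, against 9.37 and 9.94 in BML-260 libraries A and B. The muscle term thus overlaps with treatment. A smaller log2 fold change or a lost call with it cannot tell muscle RNA from treatment. DESeq2 called 0 of the 36 genes with the muscle term, where it called 0.032% of all genes in either direction, and 12 without vehicle B, against 2.97% of all genes. Without vehicle A it called 7, against 1.36% of all genes. These were the 6 muscle isoforms and Slc16a3, and not Gapdh, Pkm, Tpi1, Pgk1 or Pfkfb4. Without BML-260 A it called 5 (Gpi1, Gapdh, Pgk1, Pkm and Tpi1), against 1.29% of all genes. Without BML-260 B it called 3 (Pkm and Tpi1 as higher and Pygl as lower), against 4.81% of all genes.

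**Figure D4:**
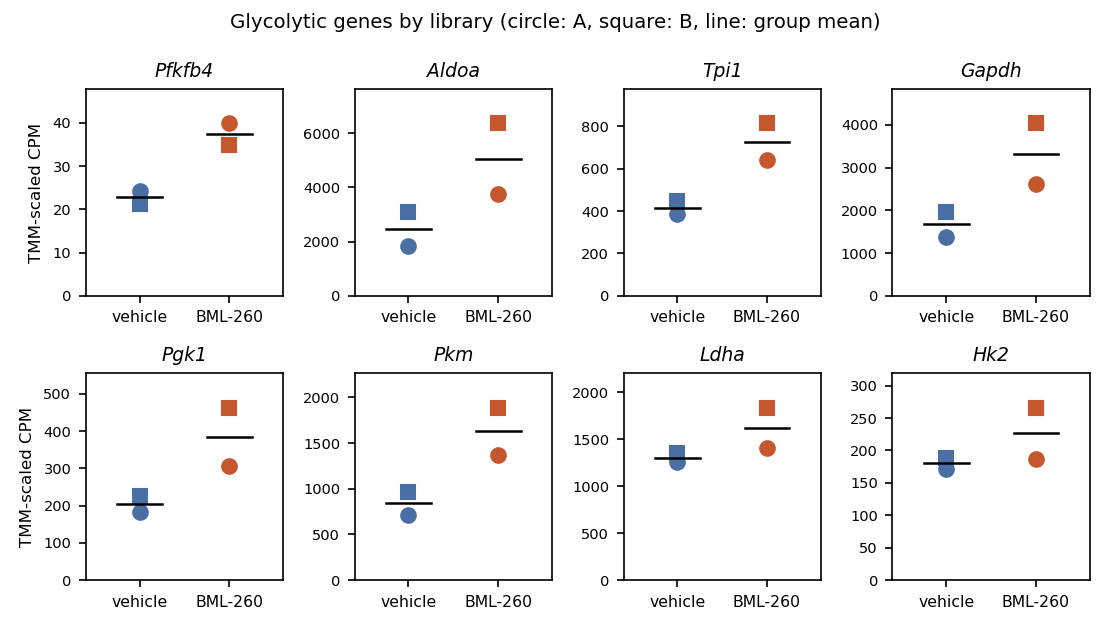
TMM-scaled CPM of 8 glycolytic genes by group, with 1 point per library (circle for A, square for B) and a line at the group mean. Pfkfb4 has close values within each group (21.4 to 24.3 CPM in vehicle, 34.8 to 39.9 with BML-260), while Aldoa, Gapdh, Pgk1 and Pkm have BML-260 B above BML-260 A.

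Pfkfb4 had the smallest edgeR p of the 36 genes and did not follow the order of the muscle markers. In DESeq2 its adjusted p was the largest of the 6 called. It belongs to the family of bifunctional enzymes that make and remove the fructose bisphosphate that activates phosphofructokinase, with its gene on chromosome 9 (108991778 to 109032228, plus strand). Its level was 24.3 and 21.4 CPM in vehicle libraries A and B, against 39.9 and 34.8 in BML-260 libraries A and B. The treated libraries were both above the vehicle libraries, and in each group library A was slightly above library B. The log2 fold change was 0.71 (SE 0.14, unadjusted p = 0.00365 and adjusted p = 0.292 in edgeR; DESeq2 adjusted p = 0.0273), a 1.63-fold difference with a 95% interval of the log2 value from 0.35 to 1.07. It was 0.91 with the muscle term, and between 0.59 and 0.80 with each library left out. The DESeq2 call of Pfkfb4 was lost in each of these 5 fits (adjusted p between 0.0743 and 1.0). Pfkfb4, Slc16a3, Phka1 and Phkg1 were the 4 genes that stayed under an unadjusted edgeR p of 0.05 in all 5 fits with every library and with each left out in turn. Over all genes tested, 2.24% were higher at that threshold in all 5 fits. With the muscle term, the 2 under that threshold were Pfkfb4 and Slc16a3, the latter with a log2 fold change of 0.75, against 1.66% of all genes higher.

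The other members of the family had smaller differences. Pfkfb3, the most abundant of them at 178 to 257 FPKM, stood at 742 and 695 CPM in vehicle, against 842 and 1001 with BML-260 (log2 fold change 0.36, SE 0.20). The groups did not overlap. Pfkfb1 had a log2 fold change of -0.01 (SE 0.24) and Pfkfb2, at 3.23 to 5.13 CPM, of -0.21 (SE 0.34).

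**Figure D5:**
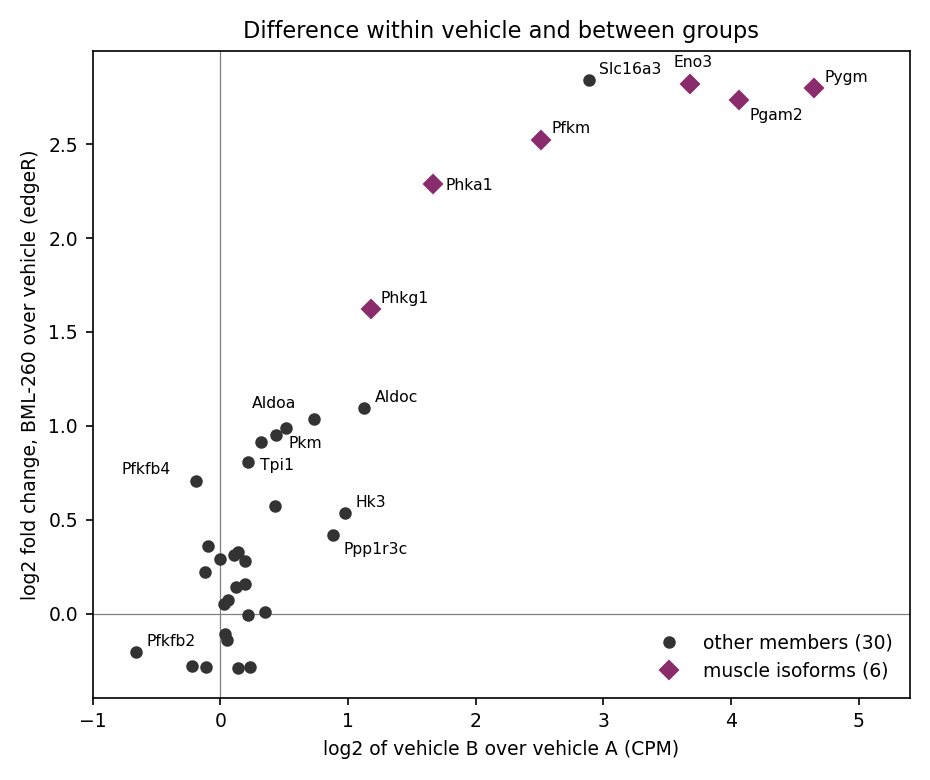
For each of the 36 genes, log2 of vehicle B over vehicle A (x axis) against the edgeR log2 fold change of BML-260 over vehicle (y axis); both axes use the vehicle libraries. Muscle isoforms and Slc16a3 lie far to the right and high, while Pfkfb4 lies left of 0 on the x axis with a log2 fold change of 0.71.

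The hexokinases and lactate dehydrogenases were not called in edgeR, DESeq2 or the authors' deposited table. Hk2, the insulin-regulated hexokinase of fat and muscle, stood at 172 and 189 CPM in vehicle, against 187 and 266 with BML-260 (log2 fold change 0.33, SE 0.21), and the groups overlapped. It took between 65.1% and 79.9% of hexokinase FPKM in the 4 libraries, with a mean of 71.9% in vehicle and 72.5% with BML-260. Hk1, the general hexokinase, had a log2 fold change of 0.14 (SE 0.15). Hk3, the hexokinase of myeloid cells, stood at 8.16 and 16 CPM in vehicle A and B, against 23.6 and 11.5 in BML-260 A and B. Summed over 10 macrophage and monocyte markers, the level was 1758 and 2041 CPM in vehicle A and B. With BML-260 it was 2582 and 1323 in A and B. Both Hk3 and this sum were highest in BML-260 A, but Hk3 was lowest in vehicle A and the sum in BML-260 B. Of the list, Cd14, C1qa, C1qb and Cd163 were highest in vehicle B and the rest in BML-260 A. Summed markers of B cells, of T and NK cells and of neutrophils were also highest in BML-260 A. The part of any of these cells in the value of Hk3 was not tested. Ldha, the main lactate dehydrogenase here at 1004 to 1398 FPKM, stood at 1256 and 1349 CPM in vehicle, against 1401 and 1833 with BML-260 (log2 fold change 0.31, SE 0.24). Ldhb, the form of oxidative tissues, took 6.16% to 7.54% of lactate dehydrogenase FPKM, with a log2 fold change of 0.22 (SE 0.13). Aldoc and Eno2, isoforms typical of brain, were low, with 5 to 18 counts for Aldoc and 3.42 to 4.04 CPM for Eno2.

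Glycogen synthesis genes showed no called difference in edgeR, DESeq2 or the authors' deposited table. Gys1, the muscle and fat glycogen synthase, stood at 217 and 248 CPM in vehicle, against 206 and 313 with BML-260 (log2 fold change 0.16, SE 0.24, 95% interval from -0.44 to 0.76). Gyg, the protein primer of glycogen, had a log2 fold change of 0.28 (SE 0.21) and Ugp2, which makes the activated glucose, of 0.29 (SE 0.12). The branching enzyme gene Gbe1 had -0.28 (SE 0.19). Ppp1r3c, which targets a phosphatase to glycogen, stood at 53.8 CPM in vehicle A and between 99.1 and 103 in the other 3 libraries, so its log2 fold change of 0.42 (SE 0.29) was set by vehicle A and was 0.02 without it. Pygl stood at 438 and 482 CPM in vehicle A and B, against 307 and 445 in BML-260 A and B. Pygl, Gbe1, Eno1 and Gys1 were among 8 of the 36 genes with their lowest value in BML-260 A. That is not a larger share than the 31.2% of all genes with their lowest value there. The level of 12 mature adipocyte markers, such as Adipoq and Plin1, was summed. It was 52381 and 51216 CPM in vehicle A and B, against 32194 and 46437 in BML-260 A and B. Of the 12, 0 had a log2 fold change above 0, against 52.5% of all genes. Their log2 fold changes ran from -0.69 for Retn to -0.01 for Plin4. Groups did not overlap for 7 on the lower side, against 21.5% of all genes. The part of adipocyte content in these values was not tested.

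Other genes of the pathway came from lists of glucose entry and branch enzymes, of the glycogen branch and of regulators. Of 26 tested genes of glucose entry, gluconeogenesis and branch enzymes, 3 were higher and 0 lower at an unadjusted edgeR p under 0.05, against 7.45% and 3.61% of all genes. The median log2 fold change was -0.05. DESeq2 called 3 higher (Pdk4, Tigar and Pck1), against 2.09% of all genes, and 0 lower, against 0.499%. Pck1, an enzyme of gluconeogenesis, stood at 1449 and 1465 CPM in vehicle, against 1899 and 2021 with BML-260. Its log2 fold change was 0.43 (SE 0.21, edgeR adjusted p = 0.514; DESeq2 adjusted p = 0.0339). Pdk4, a kinase that shuts off pyruvate dehydrogenase, stood at 56.1 and 81.9 CPM in vehicle, against 295 and 338 with BML-260 (log2 fold change 2.20, SE 0.23, edgeR adjusted p = 0.216; DESeq2 adjusted p = 1.93e-17). Tigar, a phosphatase of fructose bisphosphate, stood at 11.8 and 19.3 CPM in vehicle, against 33.7 and 52.7 with BML-260 (log2 fold change 1.47, SE 0.32). Pdk4, Tigar and Pck1 had the order of the muscle markers, which 6 of 9 thermogenic adipocyte markers shared, and Bpgm did not. Bpgm, which makes bisphosphoglycerate, had a log2 fold change of 0.66 (SE 0.14).

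Of 23 tested genes of the glycogen branch, 7 were higher and 0 lower at an unadjusted edgeR p under 0.05, against 7.45% and 3.61% of all genes. Their median log2 fold change was 0.18, and DESeq2 called 5 higher, against 2.09% of all genes. Stbd1, which tethers glycogen to membranes, stood at 5.32 and 7.87 CPM in vehicle, against 20.2 and 19.0 with BML-260 (log2 fold change 1.57, SE 0.24, edgeR adjusted p = 0.260; DESeq2 adjusted p = 9.92e-05). Phkb, the beta subunit of phosphorylase kinase, had a log2 fold change of 1.12 (SE 0.26). The phosphoglucomutase family genes Pgm2 and Pgm2l1 had 0.76 (SE 0.24) and 0.87 (SE 0.18), and the phosphatase catalytic subunit gene Ppp1cb 0.34 (SE 0.12). Ppp1r3a, the muscle glycogen-targeting subunit, stood at 1.09 and 12.9 CPM in vehicle, against 55.9 and 73.2 with BML-260 (log2 fold change 3.19, SE 0.95), in the order of the muscle markers. Phkb and Pgm2 had the same order, while Stbd1, Pgm2l1 and Ppp1cb did not.

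Of 12 regulators of glycolytic genes, 2 were higher and 0 lower at an unadjusted edgeR p under 0.05, against 7.45% and 3.61% of all genes. DESeq2 called 0 of them higher, against 2.09% of all genes, and 0 lower. Irf4, a transcription factor of fasting adipocytes and of immune cells, stood at 22.9 and 27.3 CPM in vehicle, against 45.2 and 35.4 with BML-260 (log2 fold change 0.68, SE 0.18). Ppargc1a, a coactivator of metabolic genes, stood at a log2 fold change of 0.64 (SE 0.22).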

How the data were processed

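RNA of subcutaneous white adipose tissue was measured in 4 libraries, 2 per treatment, grouped by the treatment label. Per the file headers, the authors deposited expected counts per gene (not normalized), FPKM, group means of both and their log2 values, and their own log2 fold change, p-value and adjusted p-value. Per the submitters' processing notes, the build was GRCm38.p5 and the tools included RSEM 1.2.31, HISAT2 2.1.0 and DESeq2 1.10.1. The sources used here do not give the annotation or the use of strand, so overlapping genes and near-identical copies are uncertain, and 11 of the 36 genes had counts that were not whole (Aldoa, Eno1, Gapdh, Gpi1, Gys1, Pfkfb2, Pfkfb3, Pfkp, Pgam1, Phkg1 and Pkm).

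Expected counts were rounded and filtered with filterByExpr, which kept 15643 of 51912 genes. Treatment was the only term of a two-sided quasi-likelihood test in edgeR 4.0.16 under R 4.3.3, scaled by TMM, with Benjamini-Hochberg adjustment over all genes tested and a threshold of 0.05. The fit left 2 residual degrees of freedom. SE was derived from the log2 fold change and its F statistic. DESeq2 1.42.0, RLE and library-total scaling, no filter, a library-letter term, a muscle marker term and leaving out each library were the alternatives. The tests were tried on simulated data, with 50 genes changed at each fold size. Of 2-fold differences edgeR found 20% and DESeq2 64%, and of 4-fold differences 82% and 90%. Among genes left unchanged, edgeR made 14 calls and DESeq2 52. In this simulation both made more false calls than a threshold of 0.05 implies, and DESeq2 made the more of them. Coordinates come from GENCODE vM21 (GRCm38), and all 36 genes were matched. Members and lists were chosen with earlier results of these data known. Every gene of the set is reported. Values in each library are given for muscle isoforms, for genes with an unadjusted p under 0.05 or a call, and for Hk2, Gapdh, Pkm, Ldha, Slc16a1, Gys1, Pygl and Ppp1r3c; up to 8 genes per pathway list under that p are named, except 1 that is not reported here. Other genes with library values were chosen after their values were seen. Counting error alone is smaller than the spread between libraries, which differed by more than counting noise. Of 10 lists of cell markers, those for neutrophils (2 of 8 tested), red blood cells (5 of 7), epithelium (2 of 8), nerve and thermogenic adipocytes had median log2 fold changes of -0.05, -0.04, -0.78, -1.05 and 2.58. B cell markers (5 of 10 tested) had 3.87 and T and NK cell markers 1.91, and both lists were highest in BML-260 A, where their summed CPM was 475 and 119, against 140 to 172 and 9.21 to 24.5 in the other 3 libraries.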

Additional observations from a re-analysis of the deposited data

How the results depend on the processing

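Leaving out each library in turn gave 0 to 309 genes called by edgeR (0 without vehicle A, 309 without vehicle B), 8 to 17 of the 36 genes under an unadjusted p of 0.05, 3 to 12 called by DESeq2, a median log2 fold change of 1.76 to 4.94 for the muscle isoforms and of 0.14 to 0.38 for the other genes. A left-out library leaves a lone library in its group, which is assumed to vary like the other group. DESeq2 called 405 genes where edgeR called 1. Without the low count filter edgeR called 651 of 24481 genes tested, 8 of the 36 among them. With the muscle term edgeR called 0 genes, 2 of the 36 genes were under an unadjusted p of 0.05, the medians were 0.39 for the muscle isoforms and 0.094 for the others, and the log2 fold change was -0.29 for Pygm, -0.14 for Hk3, -0.37 for Pfkl, 0.41 for Pfkfb2, -0.0064 for Pgam1, -0.11 for Gys1 and -0.34 for Ppp1r3c; the cause was not tested. DESeq2 runs without each library and with the muscle term (0 of the 36 called) were chosen after seeing the data. Pfkl was -0.00214 by DESeq2, -0.00213 with RLE factors and -0.0565 with library totals. The range over left-out libraries crossed 0 for Hk1 (-0.026 to 0.27), Hk3 (-0.092 to 1.1), Pfkl (-0.23 to 0.19), Pfkfb1 (-0.38 to 0.27), Pfkfb2 (-0.50 to 0.13), Pgam1 (-0.013 to 0.13), Eno1 (-0.32 to 0.058), Eno2 (-0.087 to 0.17), Gys1 (-0.18 to 0.41) and Gyg (-0.0091 to 0.51). The difference in share, in percentage points, crossed 0 for Ldhb (-0.95 to 0.11) and Hk2 (-6.82 to 7.98). For Pfkm, Pgam2, Eno3, Pygm and Slc16a3 it was 28.8 to 73.4 over all left-out libraries, and shares from CPM or with 0.1 added to FPKM kept the direction of all 8. The replicate block, with the library letter as a term, gave 0 genes called by edgeR. In it 14 of the 36 were higher at an unadjusted edgeR p under 0.05, against 6.67% of all genes. None was lower, against 2.71%. No label says what the letters stand for. Deviations of the A libraries from their group means correlated at -0.06 over genes, which cannot tell whether a letter marks a shared batch.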
